A study of Homo sapiens with 8 samples.

Results

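The genes described are 10 effectors of the CHOP and ATF4 branch of the cellular stress response: the transcription factors DDIT3 (which encodes CHOP), CEBPB, ATF3, JDP2 and ATF5, the intracellular regulators TRIB3, CHAC1 and SESN2, and the secreted proteins INHBE and STC2. They were taken as every probe set of the Affymetrix U133 Plus 2.0 array whose only gene symbol is one of these 10. That gave 19 probe sets, of 54675 on the array, and 10 genes, of 19775 with a probe set of their own. The genes were chosen by the log2 differences between silenced and control arrays that an earlier reading of the same 8 arrays gave, so those differences are given as a description.

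RNA came from 8 cultures of JJN3 and RPMI-8226, established lines of human multiple myeloma, the cancer of plasma cells. Each line had 4 conditions with 1 array each: lentiviral IRE1 shRNA (IRE1 is the product of ERN1), lentiviral XBP1 shRNA, a lentiviral non-targeting (NT) shRNA, and no virus. In bulk RNA, fewer cells of a type and less RNA per cell cannot be told apart. Per the labels, infection took 16 h with 8 µg/mL polybrene and cells were harvested at 96 h. The lines are the only replicates of a treatment (n = 2). With the line as a block, a p-value between treatments measures how far the treatment differences varied between the 2 lines. Nothing in the labels gives a second shRNA for either target or the share of cells infected.

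IRE1 and PERK are sensors of unfolded protein in the endoplasmic reticulum (ER). IRE1 splices the mRNA of XBP1, which drives secretory genes in plasma cells, whereas PERK phosphorylates the translation factor eIF2. Phosphorylated eIF2 slows general protein synthesis but favours translation of ATF4, a basic leucine zipper (bZIP) transcription factor that induces amino acid metabolism genes, CHOP, and feedback regulators such as TRIB3; other eIF2 kinases reach the same point from amino acid shortage or haem shortage.

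ATF4 and its C/EBP partners bind composite C/EBP-ATF response elements, so the RefSeq promoter windows of the genes (assembly GRCh38.p14, 250 bases before to 50 after a start site) were searched for the element's core, TGATGNAA, on both strands. Of the 10 genes, 9 had a window, 18 windows in all, and INHBE had none. The core occurred in 3 of the 18 windows, 1 each of CHAC1, JDP2 and ATF3, and in 3.62% of all 35116 windows of the table. By gene that is 3 of 9, against 4.46% of 27305 genes. TGACGT, the core of the cAMP response element, occurred in 1 of the 18 windows, in JDP2, and in 7.98% of all windows. The 3 windows with the core follow, together with one of the DDIT3 windows, which holds neither motif. Capitals mark the motifs, and each sequence runs 5′ to 3′ on the strand of its gene.
CHAC1, chr15:40953221-40953520, plus strand: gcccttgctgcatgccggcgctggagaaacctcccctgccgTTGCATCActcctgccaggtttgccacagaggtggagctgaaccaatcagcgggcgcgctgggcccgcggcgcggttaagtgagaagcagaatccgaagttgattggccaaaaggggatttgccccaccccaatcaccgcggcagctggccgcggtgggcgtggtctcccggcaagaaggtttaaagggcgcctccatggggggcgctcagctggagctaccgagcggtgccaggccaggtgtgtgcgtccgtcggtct
JDP2, chr14:75427772-75428071, plus strand: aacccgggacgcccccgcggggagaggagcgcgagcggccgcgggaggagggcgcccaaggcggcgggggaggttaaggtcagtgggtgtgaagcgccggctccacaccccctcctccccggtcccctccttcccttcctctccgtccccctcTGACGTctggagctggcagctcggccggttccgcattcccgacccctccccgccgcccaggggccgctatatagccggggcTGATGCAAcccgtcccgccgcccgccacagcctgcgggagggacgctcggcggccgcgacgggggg
ATF3, chr1:212565157-212565456, plus strand: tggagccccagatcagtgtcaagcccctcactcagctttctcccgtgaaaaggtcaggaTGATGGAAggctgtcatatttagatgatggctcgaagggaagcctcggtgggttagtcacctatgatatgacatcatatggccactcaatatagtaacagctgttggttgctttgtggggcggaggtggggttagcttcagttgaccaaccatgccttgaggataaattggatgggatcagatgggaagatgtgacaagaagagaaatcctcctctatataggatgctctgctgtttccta
DDIT3, chr12:57520465-57520764, minus strand: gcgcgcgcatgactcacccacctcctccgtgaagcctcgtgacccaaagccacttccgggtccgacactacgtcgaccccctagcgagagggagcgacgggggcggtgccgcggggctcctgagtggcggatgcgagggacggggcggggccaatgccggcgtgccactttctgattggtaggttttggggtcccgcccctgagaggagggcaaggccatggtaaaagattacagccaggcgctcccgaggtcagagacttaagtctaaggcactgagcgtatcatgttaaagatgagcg
In CHAC1 the core lies on the opposite strand, so the capitals show its reverse complement, and it starts 209 bases before the start site. In JDP2 the cAMP element core starts 97 bases and the C/EBP-ATF core 16 bases before the start site, without overlap, and in ATF3 the core starts 191 bases before it. A match is a match of letters and was not tested as a binding site.

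The deposited values are log-scale signals in which each probe set has a median of 0 over the 8 arrays, so they give differences between arrays and neither a level nor a signal over background. Base 2 was assumed, as RMA returns it. XBP1 mRNA (200670_at) was -1.47 with IRE1 shRNA and -0.02 with XBP1 shRNA in JJN3, against 1.11 with NT shRNA and 1.02 uninfected. In RPMI-8226 it was -0.60 on the array labelled IRE1 shRNA and -0.58 with XBP1 shRNA, against 0.02 with NT shRNA and 0.19 uninfected. ERN1 (235745_at) was -1.24 on the IRE1 shRNA array and -0.35 on the NT shRNA array of JJN3, whereas in RPMI-8226 it was 2.11 on the array labelled IRE1 shRNA, 1.73 with NT shRNA and 2.75 uninfected. A second ERN1 probe set, 227755_at, likewise lay 0.23 above NT shRNA on that RPMI-8226 array. On the third ERN1 probe set, 207061_at, IRE1 shRNA minus NT shRNA was -0.17 in RPMI-8226 and 0.19 in JJN3. That RPMI-8226 array is therefore called the array labelled IRE1 shRNA. Each IRE1 difference in RPMI-8226 rests on a library whose target mRNA was not below its NT control on 235745_at and 227755_at. On 235745_at the XBP1 shRNA arrays held less ERN1 mRNA than NT shRNA in both lines, by -1.22 in JJN3 and -1.45 in RPMI-8226. On 227755_at these differences were -1.38 in JJN3 and -1.36 in RPMI-8226, and on 207061_at they were -0.01 and -0.14. On the second XBP1 probe set, 242021_at, XBP1 shRNA minus NT shRNA was 0.03 in JJN3 and -0.20 in RPMI-8226. IRE1 shRNA minus NT shRNA was 0.10 and -0.01 on it. The hybridisation controls had a median of 0.40 on the JJN3 IRE1 shRNA array and between -0.19 and 0.06 on the other 7. The poly-A controls were highest on the RPMI-8226 XBP1 shRNA array, at a median of 0.41. T and NK cell, myeloid, and stromal and epithelial markers had medians between -0.36 and 0.34 on every array, and on centred values neither these nor the 8 plasma cell markers can be read as present or absent.

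Of the 10 genes, 9 were lower on both silenced arrays (IRE1 shRNA and XBP1 shRNA) than on both control arrays (NT shRNA and uninfected) of JJN3. The exception was ATF5. In RPMI-8226 the same held for 6: DDIT3, TRIB3, SESN2, INHBE, STC2 and CEBPB. By probe set it was 14 of 19 in JJN3, where 20.3% of all 54613 tested probe sets did so, and 8 of 19 in RPMI-8226, where 14.5% did so. The 8 probe sets that were lower in RPMI-8226 were also lower in JJN3, against 4.11% of all probe sets in both lines. The opposite order, silenced above control, held for 2 ATF5 probe sets in JJN3 (19.6% of all) and for 1 ATF3 probe set in RPMI-8226 (18.7% of all). No probe set of these genes passed an adjusted p of 0.05 in any comparison of treatments with limma, a linear model with a moderated variance fitted to all 54613 probe sets with the line as a block. Fewer probe sets of these genes differed at least 2-fold in RPMI-8226. At least 2-fold below NT shRNA were 10 of 19 with IRE1 shRNA (0.95% of all) and 9 with XBP1 shRNA (0.991%) in JJN3, against 0 on the array labelled IRE1 shRNA (0.355%) and 4 with XBP1 shRNA (1.25%) in RPMI-8226. The genes were chosen with these contrasts in view, so nothing is read from these counts.

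**Figure D1:**
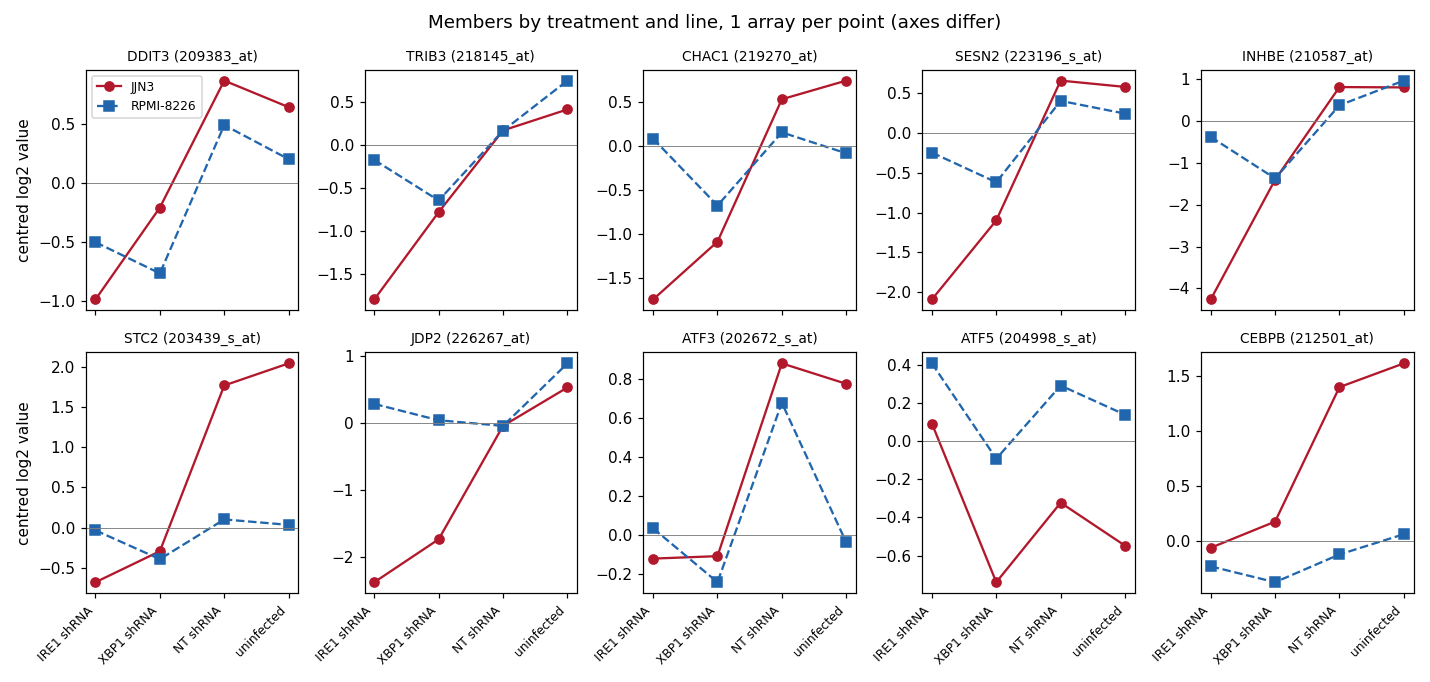
Centred log2 value (vertical axis, scale differs by panel) of the described probe set of each gene on the 8 arrays, with IRE1 shRNA, XBP1 shRNA, NT shRNA and uninfected cells from left to right; red circles are JJN3 and blue squares RPMI-8226, 1 array per point and no error bar. In JJN3 the IRE1 shRNA array is the lowest for 9 of the 10 genes, and in RPMI-8226 the XBP1 shRNA array is the lowest for 9 of the 10.

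DDIT3, the bZIP factor CHOP that ATF4 induces and that promotes death under lasting ER stress, has 1 probe set (209383_at). In JJN3 it was -0.98 with IRE1 shRNA and -0.21 with XBP1 shRNA, against 0.87 with NT shRNA and 0.65 uninfected. The RPMI-8226 values were -0.50 on the array labelled IRE1 shRNA and -0.76 with XBP1 shRNA, against 0.49 with NT shRNA and 0.21 uninfected. All 4 silenced arrays lay below all 4 control arrays. The fitted difference was -1.17 ± 0.24 for XBP1 shRNA minus NT shRNA (SE; 2.24-fold lower; limma adjusted p = 0.0559) and -1.42 ± 0.24 for IRE1 shRNA minus NT shRNA (adjusted p = 0.135). The first of these passed when 1 probe set per gene was tested (limma adjusted p = 0.0471) and when probe sets below the median SD were left out (adjusted p = 0.0456). Both alternatives kept probe sets by their SD over all arrays, which includes the difference tested. DDIT3 was also chosen with this kind of difference known, so nothing is read from these passes. XBP1 shRNA minus NT shRNA was -1.08 in JJN3 and -1.26 in RPMI-8226, so the size was alike in the lines.

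CEBPB encodes C/EBPβ, a bZIP factor with which CHOP can pair. Its JJN3 values were -0.06 with IRE1 shRNA and 0.18 with XBP1 shRNA, against 1.40 with NT shRNA and 1.62 uninfected. In RPMI-8226 it stayed between -0.38 and 0.06, with -0.23 on the array labelled IRE1 shRNA and -0.38 with XBP1 shRNA, against -0.12 with NT shRNA and 0.06 uninfected. The silenced arrays were thus below the controls in both lines, by -1.45 on average in JJN3 and -0.27 in RPMI-8226. Neither shRNA difference passed (XBP1 shRNA -0.74 ± 0.32, limma adjusted p = 0.345; IRE1 shRNA -0.79 ± 0.32, adjusted p = 0.469).

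ATF3, a stress-induced bZIP repressor, was -0.12 with IRE1 shRNA and -0.11 with XBP1 shRNA in JJN3, against 0.88 with NT shRNA and 0.78 uninfected (202672_s_at). Its RPMI-8226 values were 0.04 on the array labelled IRE1 shRNA and -0.24 with XBP1 shRNA, against 0.68 with NT shRNA and -0.04 uninfected. The RPMI-8226 groups overlap, because the uninfected array lay below the array labelled IRE1 shRNA. XBP1 shRNA minus NT shRNA came to -0.95 ± 0.21 (limma adjusted p = 0.0739). Against uninfected cells the RPMI-8226 XBP1 shRNA array held 86.8% of the control signal, against 52.9% of NT shRNA. ATF3 probe set 1554980_a_at correlated with it over the 8 arrays (r = 0.96, line means removed, a description), and 1554420_at hardly varied (SD 0.09, against 0.46).

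JDP2 encodes a bZIP repressor that pairs with JUN proteins. In JJN3 it was -2.38 with IRE1 shRNA and -1.74 with XBP1 shRNA, against -0.04 with NT shRNA and 0.53 uninfected (226267_at). In RPMI-8226 it was 0.29 on the array labelled IRE1 shRNA and 0.04 with XBP1 shRNA, against -0.04 with NT shRNA and 0.89 uninfected. The JJN3 groups do not overlap and those of RPMI-8226 do, with NT shRNA the lowest array there. JDP2 was also the gene with the largest gap between the controls, NT shRNA minus uninfected being -0.57 in JJN3 and -0.94 in RPMI-8226 (fitted -0.75 ± 0.52, limma adjusted p = 0.900). The second probe set, 239085_at, had the same order in JJN3 within a range from -0.41 to 0.21.

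ATF5, a bZIP factor translated under stress much as ATF4 is, did not share this pattern. Its described probe set (204998_s_at) was 0.09 with IRE1 shRNA and -0.74 with XBP1 shRNA in JJN3, against -0.32 with NT shRNA and -0.55 uninfected. RPMI-8226 cells had 0.41 on the array labelled IRE1 shRNA and -0.09 with XBP1 shRNA, against 0.29 with NT shRNA and 0.14 uninfected. XBP1 shRNA gave the lowest and IRE1 shRNA the highest value in both lines. IRE1 shRNA minus XBP1 shRNA was 0.67 ± 0.15 (limma adjusted p = 0.0661), and XBP1 shRNA minus NT shRNA was -0.40 ± 0.15 (adjusted p = 0.275). The 3 other ATF5 probe sets gave IRE1 shRNA minus XBP1 shRNA differences of 0.36, -0.09 and 0.10 in turn. On 204999_s_at both JJN3 control arrays lay below XBP1 shRNA, so the full order holds on 204998_s_at only.

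TRIB3, a pseudokinase that ATF4 and CHOP induce and that restrains both ATF4 and AKT, was -1.80 with IRE1 shRNA and -0.78 with XBP1 shRNA in JJN3, against 0.17 with NT shRNA and 0.42 uninfected (218145_at). The values in RPMI-8226 were -0.17 on the array labelled IRE1 shRNA and -0.64 with XBP1 shRNA, against 0.17 with NT shRNA and 0.76 uninfected. Groups did not overlap within either line. The fitted differences from NT shRNA were -0.88 ± 0.33 for XBP1 shRNA (limma adjusted p = 0.275) and -1.16 ± 0.33 for IRE1 shRNA (adjusted p = 0.291). Probe set 1555788_a_at had smaller differences, -0.72 and -0.66, with lower SEs of 0.19 each.

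CHAC1 encodes an enzyme that degrades glutathione and is a target of ATF4. In JJN3 it was -1.74 with IRE1 shRNA and -1.09 with XBP1 shRNA, against 0.53 with NT shRNA and 0.74 uninfected. In RPMI-8226 it was 0.08 on the array labelled IRE1 shRNA and -0.68 with XBP1 shRNA, against 0.15 with NT shRNA and -0.08 uninfected. In RPMI-8226 the XBP1 shRNA array alone lay below both controls. XBP1 shRNA minus NT shRNA was -1.62 in JJN3 and -0.83 in RPMI-8226, and the IRE1 difference was -2.28 in JJN3 and -0.07 in RPMI-8226.

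SESN2 encodes a leucine sensor that restrains the growth kinase complex mTORC1. Its described probe set (223196_s_at) was -2.09 with IRE1 shRNA and -1.10 with XBP1 shRNA in JJN3, against 0.66 with NT shRNA and 0.58 uninfected. On the RPMI-8226 arrays it was -0.25 on the array labelled IRE1 shRNA and -0.62 with XBP1 shRNA, against 0.41 with NT shRNA and 0.25 uninfected. All 4 silenced arrays again lay below all 4 control arrays, as they did in 223195_s_at. The differences from NT shRNA were -1.70 ± 0.43 for IRE1 shRNA (limma adjusted p = 0.239) and -1.39 ± 0.43 for XBP1 shRNA (adjusted p = 0.181).

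INHBE encodes the βE chain of the inhibin and activin hormones, secreted proteins of the TGF-β family best known from liver. It had the largest fitted difference of the 10 genes for each shRNA against NT shRNA. In JJN3 it was -4.26 with IRE1 shRNA and -1.40 with XBP1 shRNA, against 0.81 on both control arrays. The RPMI-8226 values were -0.38 on the array labelled IRE1 shRNA and -1.37 with XBP1 shRNA, against 0.38 with NT shRNA and 0.97 uninfected. The groups did not overlap in either line. The JJN3 IRE1 shRNA array held 2.96% of the NT shRNA signal, the lowest ratio of all 54613 probe sets in that pair of arrays. XBP1 shRNA left 21.5% in JJN3 and 29.8% in RPMI-8226. The fitted difference for IRE1 shRNA minus NT shRNA was -2.92 ± 0.83 (limma adjusted p = 0.281), from -5.08 in JJN3 and -0.76 in RPMI-8226.

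STC2 encodes stanniocalcin 2, a secreted glycoprotein with roles in calcium handling and growth factor release. In JJN3 it was -0.68 with IRE1 shRNA and -0.29 with XBP1 shRNA, against 1.77 with NT shRNA and 2.04 uninfected (203439_s_at). In RPMI-8226 it moved little, with -0.03 on the array labelled IRE1 shRNA and -0.39 with XBP1 shRNA, against 0.10 with NT shRNA and 0.03 uninfected. Both silenced arrays lay below both control arrays in each line, and the silenced minus control difference was -2.39 in JJN3 and -0.28 in RPMI-8226. On the second probe set, 203438_at, the RPMI-8226 array labelled IRE1 shRNA, at 0.17, lay above NT shRNA, at -0.17, so the RPMI-8226 separation holds on 203439_s_at only.

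**Figure D2:**
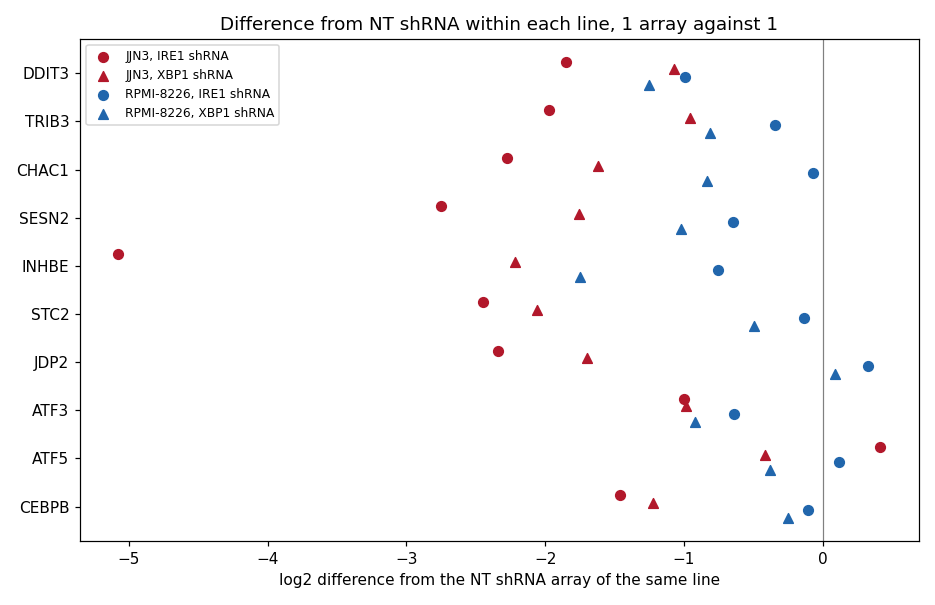
Log2 difference of each silenced array from the NT shRNA array of its own line (horizontal axis), by gene; red is JJN3, blue RPMI-8226, circles IRE1 shRNA and triangles XBP1 shRNA, 1 array against 1 and no error. Every gene but ATF5 has its JJN3 IRE1 shRNA circle furthest left, and INHBE reaches -5.08 there.

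Set together, IRE1 shRNA minus NT shRNA had a median over the 10 genes of -2.12 in JJN3 and -0.24 in RPMI-8226, and XBP1 shRNA minus NT shRNA one of -1.42 in JJN3 and -0.82 in RPMI-8226. All genes of the array had medians between -0.01 and 0.01 in these comparisons. On the described probe sets, the XBP1 shRNA differences of DDIT3, TRIB3, ATF3 and ATF5 were alike in the lines. For ATF5 on 204999_s_at that difference was 0.29 in JJN3 and -0.27 in RPMI-8226. It was 0.22 and -0.06 on 230938_x_at, and -0.19 and -0.10 on 217389_s_at. The IRE1 shRNA differences of the described probe sets were negative in both lines and larger in JJN3 for all genes but ATF5 and JDP2. These 2 comparisons share their NT shRNA arrays. In the fit, XBP1 shRNA minus NT shRNA was negative for 10 of 10 genes (49.9% of all probe sets) and IRE1 shRNA minus NT shRNA for 9 of 10 (49.2%). Over all probe sets 1.21% passed in the first comparison and 0.0183% in the second, and of the 19 probe sets of these genes 0 passed in either. At an unadjusted p under 0.05 it was 13 of 19 (13.7% of all) with XBP1 shRNA and 10 of 19 (9.47% of all) with IRE1 shRNA. Leaving out the RPMI-8226 array labelled IRE1 shRNA keeps 1 IRE1 shRNA array, that of JJN3, which then fits itself. In that fit IRE1 shRNA minus NT shRNA came to -4.90 for INHBE and -1.89 for DDIT3, with a median of -1.31 over the 19 probe sets. Dropping the JJN3 array instead gave a median of -0.21, against -0.79 with all arrays. The genes were chosen by differences of this kind, so these values are descriptions and no test is read from either fit.

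The order of the shRNAs was opposite in the lines. IRE1 shRNA lay below XBP1 shRNA in JJN3 for 9 of 10 genes (47.7% of all probe sets), and above it in RPMI-8226 for 10 of 10 (48.7%). By probe set this opposite order held for 13 of 19, against 19.3% of all probe sets. INHBE was 13.8% of its XBP1 shRNA value on the JJN3 IRE1 shRNA array, and 198.9% of it on the RPMI-8226 array labelled IRE1 shRNA. The fitted IRE1 shRNA minus XBP1 shRNA differences had a median of -0.12 over the 10 genes and 0.03 over the 19 probe sets. The median over the 19 was -0.44 without the RPMI-8226 array labelled IRE1 shRNA and 0.40 without the JJN3 IRE1 shRNA array. With all arrays 0 of 19 probe sets passed, where 1.9% of all did. At an unadjusted p under 0.05 it was 1 of 19, on ATF5, and 13.7% of all. On 235745_at ERN1 mRNA was at 2.11 on the RPMI-8226 array labelled IRE1 shRNA and 0.29 with XBP1 shRNA. In JJN3 the hybridisation controls were highest on the IRE1 shRNA array. The part of either in this order was not tested.

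Between the controls no gene of the 10 passed. NT shRNA minus uninfected was negative for 5 of the 10 (47.8% of all probe sets) and its median was -0.05, with JDP2 at -0.75, TRIB3 at -0.41 and ATF3 at 0.41 the largest. No probe set passed, of the 19 or of all 54613 (0%), and 1 of the 19 had an unadjusted p under 0.05, where 5.57% of all did. In RPMI-8226 ATF3 was 164.0% of its uninfected value with NT shRNA and INHBE was 66.5%. In that line the choice of control also turned signs. JDP2 was 0.33 on the array labelled IRE1 shRNA and 0.08 with XBP1 shRNA relative to NT shRNA, but -0.61 and -0.85 relative to uninfected cells. On the array labelled IRE1 shRNA, ATF3 was -0.64 relative to NT shRNA and 0.07 relative to uninfected cells, and CHAC1 was -0.07 and 0.17.

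Silenced against control, 4 arrays against 4, gave -2.60 ± 0.61 for INHBE (limma adjusted p = 0.228), -1.49 ± 0.31 for SESN2 (adjusted p = 0.186) and -1.17 ± 0.18 for DDIT3 (adjusted p = 0.149). The described probe sets of 9 genes were negative (47.6% of all probe sets) and ATF5 was at 0.03, a sign that turned when single arrays were left out. The median over the 10 genes was -1.21, from -1.82 in JJN3 and -0.38 in RPMI-8226. None of the 54613 probe sets passed in this comparison (0%). An unadjusted p under 0.05 was found for 12 of the 19, where 9.3% of all had one. The genes were chosen by differences of this comparison, so nothing is read from its counts or p-values. Plasma cell and myeloma markers were negative for 7 of 8 in the same comparison, with a median of -0.43 (-0.73 in JJN3, -0.33 in RPMI-8226) and 0 passing, and their part in the result was not tested. This fit counts both shRNAs as 1 group, so its spread includes the difference between them.

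**Figure D3:**
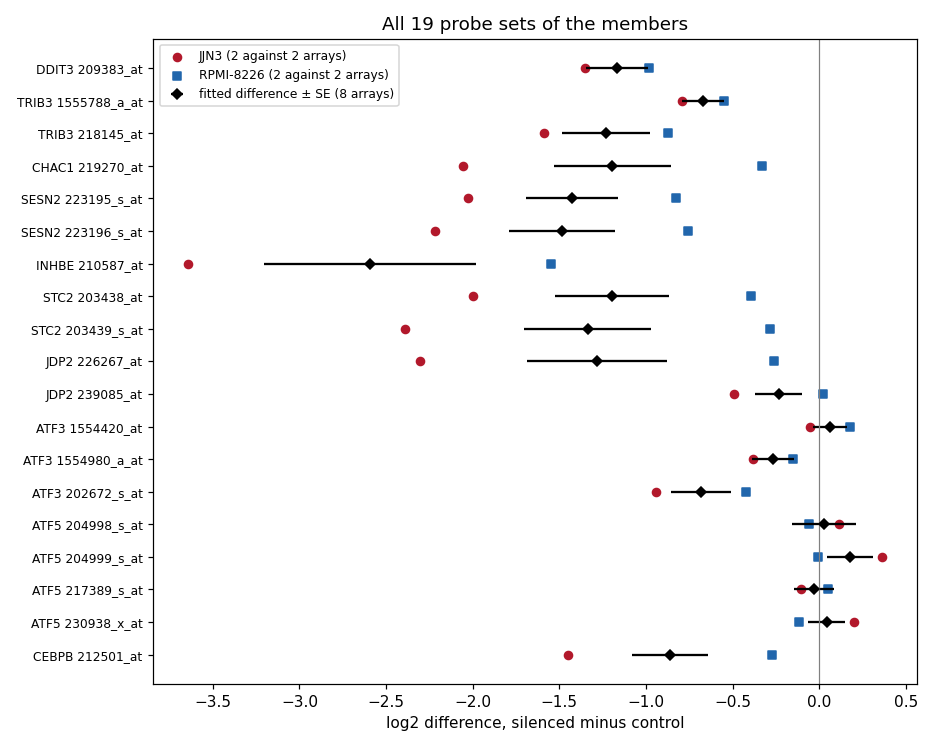
Silenced minus control log2 difference (horizontal axis) of all 19 probe sets; black diamonds with bars are the fitted difference ± SE over 8 arrays, red circles the JJN3 and blue squares the RPMI-8226 difference of 2 against 2 arrays. Probe sets of SESN2 and STC2 lie close together, and the 4 ATF5 probe sets lie between -0.03 and 0.18.

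Between the lines, JJN3 minus RPMI-8226 with treatment as the block, 7 of the 19 probe sets passed, 1 higher and 6 lower in JJN3. Over all probe sets 56% passed, 22.8% higher and 33.3% lower. Each side of this comparison is 1 line, whose 4 arrays of unlike treatments stand as its replicates. The p-values therefore measure the spread over treatments and not the spread between lines. After cyclic loess normalisation 9 of the 19 passed, against 25612 of 54613, so a share below that of all probe sets depends on the normalisation. CEBPB was higher in JJN3 by 0.95 ± 0.22 (limma adjusted p = 0.00589). All 4 ATF5 probe sets were lower in JJN3, from -0.61 to -0.35, and JDP2 was lower by -1.20 ± 0.37 (limma adjusted p = 0.0215). TRIB3 passed on 1555788_a_at, at -0.50 ± 0.13 (limma adjusted p = 0.0105), and not on 218145_at. The 3′ minus 5′ difference of control probe sets is a sign of RNA quality. For actin it was 0.13 to 0.42 on the JJN3 arrays and -0.61 to -0.43 on the RPMI-8226 arrays. For GAPDH it was 0.00 to 0.05 on the JJN3 arrays and -0.08 to 0.06 on the RPMI-8226 arrays. The part of RNA quality in the line differences was not tested.

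The difference between the lines varied by treatment, as 1 array against 1. JJN3 minus RPMI-8226 for STC2 was -0.64 with IRE1 shRNA and 0.10 with XBP1 shRNA, against 1.67 with NT shRNA and 2.01 uninfected. For CEBPB it was 0.17 with IRE1 shRNA and 0.55 with XBP1 shRNA, against 1.52 with NT shRNA and 1.55 uninfected. For JDP2 it was the silenced arrays that differed, by -2.67 with IRE1 shRNA and -1.78 with XBP1 shRNA, against 0.00 with NT shRNA and -0.36 uninfected. ATF5 was lower in JJN3 under all 4 treatments, by -0.69 to -0.32.

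**Figure D4:**
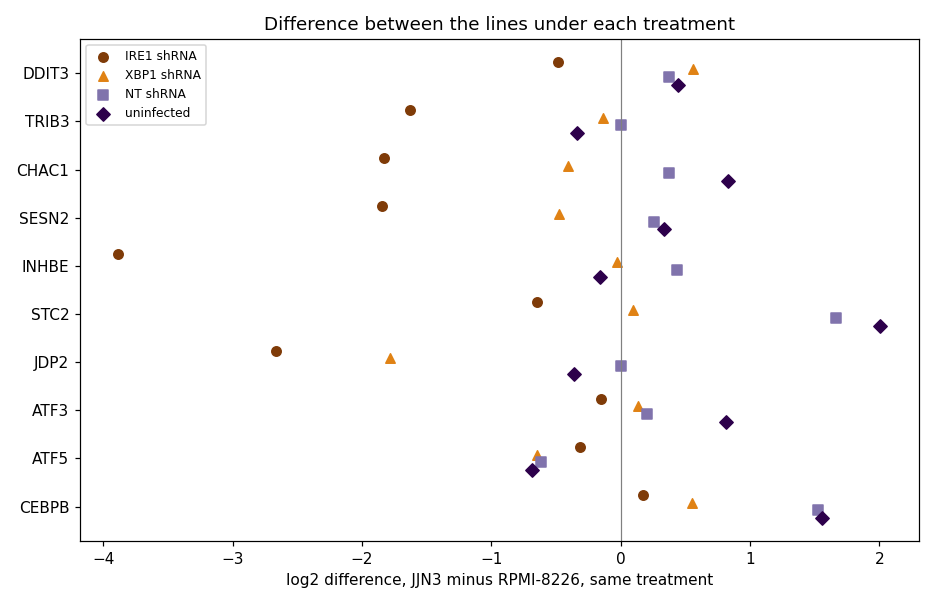
JJN3 minus RPMI-8226 log2 difference (horizontal axis) of each gene under IRE1 shRNA (brown circles), XBP1 shRNA (orange triangles), NT shRNA (violet squares) and in uninfected cells (dark diamonds), 1 array against 1 and no error. STC2 and CEBPB differ most in the 2 control conditions, and INHBE and JDP2 most with IRE1 shRNA.

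The difference between the lines in the silencing effect was tested as an interaction, in which both shRNAs and both controls of a line stand as its replicates. It was -2.11 ± 0.27 for STC2 (limma adjusted p = 0.426), -2.04 ± 0.48 for JDP2 (adjusted p = 0.786), -1.72 ± 0.40 for CHAC1 (adjusted p = 0.786) and -1.18 ± 0.22 for CEBPB (adjusted p = 0.704). No probe set passed, of the 19 or of all 54613 (0%). At an unadjusted p under 0.05 it was 8 of the 19, where 5.23% of all did so. Of the 19, 16 were negative, where 52% of all were. The genes were chosen by silenced against control differences on these same arrays, so nothing is read from these counts. The larger JJN3 values are therefore a description of these arrays.

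Over the 8 arrays, with each line's mean removed, the 9 genes other than ATF5 varied together. The 36 correlations between pairs of them ran from 0.67 (JDP2 with ATF3) to 0.99 (STC2 with CEBPB), with a median of 0.91, whereas those of ATF5 with the other 9 ran from -0.40 to 0.06. The arrays share their lines, and each treatment adds only 2 points, so these are descriptions with no test. The genes were also chosen by differences between these same arrays, and ATF5 was set apart after its values were seen. High correlations among the 9 therefore follow in part from that choice, and nothing is read from them. Among 1009 probe sets of 825 genes with an SD of at least 0.5 on this scale, the 6 genes outside the list most like DDIT3 were RPRD1A, an RNA polymerase II regulator (r = 0.98), NIPAL3 (0.97), TMEM39A (0.97), RHBDD1, a rhomboid protease (0.97), ZBED3 (0.97) and PTMA, prothymosin alpha (0.96). Within the list SESN2 (0.96), INHBE (0.94) and TRIB3 (0.92) came nearest to DDIT3 on their described probe sets. TRIB3 had 0.97 on 1555788_a_at, whose SD of 0.39 is below that minimum.

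The other genes of the pathway were read from lists, 1 probe set per gene. ATF4 mRNA was -1.75 with IRE1 shRNA and -0.85 with XBP1 shRNA in JJN3, against -0.07 with NT shRNA and 0.10 uninfected. In RPMI-8226 it was 0.11 on the array labelled IRE1 shRNA and -0.15 with XBP1 shRNA, against 0.07 with NT shRNA and 0.43 uninfected. ATF4 was thus lowest on the JJN3 array where 9 of the 10 genes were lowest, and silenced minus control was -0.79 ± 0.25 (limma adjusted p = 0.352). CEBPG, a bZIP partner of ATF4, was at -0.78 (adjusted p = 0.399). EIF2AK3, which encodes PERK, and PPP1R15A, the GADD34 subunit that reverses eIF2 phosphorylation, were at -0.26 and -0.23 with adjusted p of 0.668 and 0.771. Of 17 regulators of the integrated stress response, the median was -0.22 and 0 passed in silenced minus control. EIF2S3, an eIF2 subunit, fell by 1.24 in XBP1 shRNA minus NT shRNA (limma adjusted p = 0.031), where 1.07% of all genes fell. With 2.86% of all genes passing in IRE1 shRNA minus XBP1 shRNA, DNAJC3, an inhibitor of PERK, was lower with IRE1 than with XBP1 shRNA by -1.28 (limma adjusted p = 0.0235).

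Of 33 other reported ATF4 targets, 29 were negative in silenced minus control, where 9614 of all 19775 genes were. The median of the 33 was -0.80 (-1.26 in JJN3, -0.33 in RPMI-8226), and 0 passed. EIF4EBP1, a repressor of translation initiation (-1.71), PCK2, mitochondrial phosphoenolpyruvate carboxykinase (-1.57), and CTH, cystathionine gamma-lyase (-1.50), had the largest differences. In XBP1 shRNA minus NT shRNA 3 of the 33 fell, where 1.07% of all genes fell. EIF4EBP1 fell by 2.41 (limma adjusted p = 0.0143), the neutral amino acid transporter SLC1A4 by 1.21 (adjusted p = 0.0276) and the tRNA exporter XPOT by 1.07 (adjusted p = 0.0449). In IRE1 shRNA minus NT shRNA 0 passed (0.0354% of all genes), the median was -0.73 and 30 of 33 were negative (9892 of all 19775 genes). Reported CHOP targets and death genes had a median of -0.17 over 9 genes, with 6 negative and 0 passing. BCL2, an inhibitor of apoptosis (-1.02), and PMAIP1, the death-promoting NOXA (-0.93), were lowest, and PPP1R15A, which is on both lists, was at -0.23.

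The median of 42 other bZIP genes in silenced minus control was -0.05, and 24 were negative, where 9614 of all 19775 genes were. XBP1 itself (-1.25), CREB3L2 (-0.95) and NFE2L1 (-0.81) had the largest differences there, with 0 passing. In XBP1 shRNA minus NT shRNA ATF6B fell by 0.81 (limma adjusted p = 0.0338), and both ATF6B and ATF6 were higher with IRE1 than with XBP1 shRNA, by 1.18 (adjusted p = 0.00993) and 0.80 (adjusted p = 0.0308). All 16 genes of the XBP1 and ATF6 branch were negative in silenced minus control, with a median of -0.51 (-0.54 in JJN3, -0.37 in RPMI-8226) and DNAJB9 (-1.01), HERPUD1 (-0.91) and SSR2 (-0.72) largest; 0 passed. DNAJB9, MANF and SSR2, 3 of the 16, fell in XBP1 shRNA minus NT shRNA, where 1.07% of all genes fell, by 1.25, 0.83 and 0.81 (limma adjusted p = 0.0258, 0.0393 and 0.0439). The median of all genes in silenced minus control was 0.01.

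**Figure D5:**
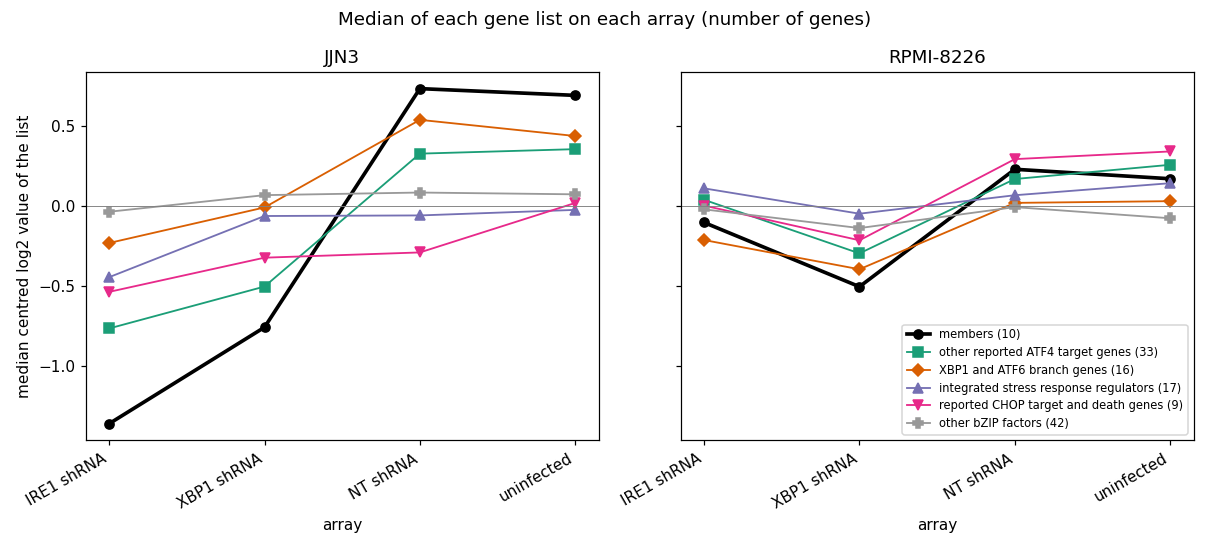
Median centred log2 value (vertical axis) of each gene list on each array, JJN3 left and RPMI-8226 right, with IRE1 shRNA, XBP1 shRNA, NT shRNA and uninfected cells from left to right; the black line is the 10 genes, and the legend gives the number of genes in each list. In JJN3 the 10 genes span from -1.36 with IRE1 shRNA to 0.74 with NT shRNA, and in RPMI-8226 from -0.51 with XBP1 shRNA to 0.23 with NT shRNA.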

How the data were processed

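Total RNA was measured on 8 Affymetrix U133 Plus 2.0 arrays. Per the submitters' processing notes the authors processed signals with RMA, which adjusts background and quantile-normalises; its version is not given in the sources used here. The deposited log2 values (base inferred) were median-centred per probe set: all 54675 had a median of 0 (tolerance 1e-05), so depth over background is unknown and the number of arrays limits precision. No pair of arrays was identical (0 of 28). Probe sets were named from the platform annotation; 1801 with several symbols and 11777 with none listed were not used for gene names.

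Differences were fitted with limma 3.58.1 (R 4.3.3; lmFit, eBayes, two-sided) over 54613 probe sets, 62 controls left out, with Benjamini-Hochberg adjustment over all of them and a threshold of 0.05. The replicate number is the cell line (RPMI-8226 1, JJN3 2), so it pairs the arrays and stood as the block. A gene is described by its probe set of highest SD over the 8 arrays, a choice that favours variable probe sets; the others are given beside it. Fits were tested on simulated data. The members, lists, named genes and alternatives were chosen with earlier results of these data known. Named from outside the members were the shRNA targets, 4 regulators, the 3 largest silenced minus control differences per list and the 6 genes most like DDIT3; list genes named because they passed a test were chosen after their values were seen. Alternatives were quantile normalisation, cyclic loess, 1 probe set per gene, the mean of a gene's probe sets, probe sets with an SD above the median, no block, uninfected cells as control, and leaving out each array.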

Additional observations from a re-analysis of the deposited data

How the results depend on the processing

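Of the counts of probe sets that passed, of 19 unless said, that for XBP1 shRNA minus NT shRNA was 0 and became 1 with 1 probe set per gene and 1 among probe sets with an SD above the median (DDIT3 in both), and ran from 0 to 3 when an array was left out. It was 3 (DDIT3, SESN2 and INHBE, at -1.17, -1.39 and -1.98) without either IRE1 shRNA array, 2 fits that give this contrast the same values because the remaining IRE1 array then fits itself. For IRE1 shRNA minus NT shRNA it was 0 and ran from 0 to 5, with 5 without the RPMI-8226 array labelled IRE1 shRNA, and IRE1 shRNA minus XBP1 shRNA ran from 0 to 1. JJN3 minus RPMI-8226 was 7, where 30602 of all 54613 probe sets passed. It became 3 of 10 with 1 probe set per gene (13632 of 19775 over all genes). With the mean of each gene's probe sets it was 4 of 10 (12993 of 19775). It was 4 without the replicate block (28870 over all probe sets), 5 after quantile normalisation (27052) and 9 after cyclic loess (25612). Leaving out an array gave 6 to 8 (25677 to 26557). The treatment counts were 0 without the replicate block. Silenced minus control, NT shRNA minus uninfected and the interaction stayed at 0 in every alternative run. ATF5 in silenced minus control, 0.03, ran from -0.156 to 0.177 with an array left out and turned to -0.0558 without the RPMI-8226 array labelled IRE1 shRNA, -0.156 without the JJN3 one and -0.0347 without the JJN3 uninfected array. The other values of the 10 genes in XBP1 shRNA minus NT shRNA, IRE1 shRNA minus NT shRNA and silenced minus control kept their sign, 425 on the same side of the threshold and 12 past it only in the alternative. Signs turned elsewhere: IRE1 shRNA minus XBP1 shRNA was negative for 9 of 19 probe sets, 2 when JJN3 IRE1 shRNA was left out and 14 when the RPMI-8226 array labelled so was, and NT shRNA minus uninfected for 10, and 4 to 14 with an array left out. Over all probe sets, XBP1 shRNA minus NT shRNA had 660 calls, 345 after quantile normalisation, 0 without the block, 1151 against uninfected cells and 0 to 342 with an array left out (0 without RPMI-8226 NT shRNA, 6 without JJN3 NT shRNA). IRE1 shRNA minus NT shRNA had 10 calls, 0 after either normalisation and without the block, 1 against uninfected cells and 0 to 38 with an array left out. IRE1 shRNA minus XBP1 shRNA had 1035, 452 after quantile normalisation, 0 without the block and 1 to 755 with an array left out. Silenced minus control had 0, 14 after quantile normalisation and 0 to 47 with an array left out. Per-gene tables had fewer features: XBP1 shRNA minus NT shRNA had 436 calls of 19775 with 1 probe set per gene and 275 with means. With an array left out, the lone array of a treatment is assumed to vary like the others. Nothing is therefore read from counts of a comparison that rests on such a lone array. Causes were not tested where none is stated.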

Other observations

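INHBE and DDIT3 lie near each other, with 3 protein-coding genes between them in the RefSeq order: GLI1, ARHGAP9 and MARS1. No probe set had MARS1 as its only gene symbol, so MARS1 was not analysed here. Silenced minus control was 0.14 for GLI1 (206646_at), against -0.63, -0.36 and -0.23 for the 3 probe sets of ARHGAP9, with limma adjusted p between 0.402 and 0.813 for these 4 probe sets. ARHGAP9 on 224451_x_at was -0.66 with IRE1 shRNA and -0.58 with XBP1 shRNA in JJN3, against 0.74 with NT shRNA and 0.52 uninfected, while in RPMI-8226 it stayed between -0.01 and 0.02. These genes were chosen after their positions and values were seen.

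RPRD1A, the gene most like DDIT3, was -0.72 with IRE1 shRNA and -0.13 with XBP1 shRNA in JJN3, against 0.50 with NT shRNA and 0.48 uninfected. In RPMI-8226 it was -0.49 on the array labelled IRE1 shRNA and -0.88 with XBP1 shRNA, against 0.25 with NT shRNA and 0.13 uninfected (218209_s_at). The arrays of each line stood in the same order as for DDIT3. RPRD1A was chosen for its likeness to DDIT3 over these same arrays, so nothing is read from that order. The other probe sets of RPRD1A were not compared here.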
